A study of Mus musculus with 2 samples.

Results

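The replication-dependent histone genes of the mouse lie in 3 clusters, on chromosomes 13, 3 and 11. Members were all protein-coding genes there with a Hist1h, Hist2h or Hist3h name, current or older, in the RefSeq gene table of GRCm38.p6, the assembly that mm10 represents. This gave 66 genes of 21887 protein-coding genes: 54 on chromosome 13, 10 on chromosome 3 and 2 on chromosome 11. They comprise 6 genes of the linker histone H1, 18 of H2A, 18 of H2B, 12 of H3 and 12 of H4. The membership used no measured value. Symbols are those of the table, which also lists Hist1h2br, an H2B gene, under the symbol H4bc24.

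The data are a list of H3K4me3 peaks from 1 CUT&RUN library of prospermatogonia, which are fetal male germ cells, sorted from mouse embryos at E17.5 on a reporter named Oct-GFP in the labels. In this assay an antibody tethers a nuclease to chromatin and the released DNA is sequenced. The assay started from 130000 cells. A matching library with rabbit IgG is labelled, and its values were not used here. The labels give no strain, genotype or pooling of embryos, and there is no replicate, so no test between groups was possible and values carry counting intervals only. Of 6 germ line genes, Ddx4, Dazl, Dppa4, Tex101 and Piwil4 had a peak within 1 kb and Nanos2 did not. This count is near the 83.4% of all protein-coding genes with such a peak, so it says nothing particular of germ line genes. Their folds ran from 4.09 at Dazl to 9.84 at Piwil4. Of 6 genes typical of other fetal testis cells, Sox9, Amh and Cdh5 had a peak, with folds of 3.33, 3.59 and 5.36, and Insl3, Cyp17a1 and Csf1r did not. The part of other cells in the histone peaks was not tested.

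Clustered histone genes supply the histones that package newly copied DNA, and are transcribed mainly in S phase. Their messenger RNAs are not polyadenylated and end in a stem-loop bound by the protein SLBP. Transcription depends on NPAT, which gathers at the clusters in a nuclear structure called the histone locus body. Many H2A and H2B genes stand head to head and share the DNA between them as a promoter. H3K4me3 is placed at promoters that are active or poised. Male germ cells of the late fetal mouse testis are known to have stopped dividing, a state called mitotic arrest.

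The promoter sequences below come from genes with the highest or lowest fold of their type, from a gene pair with no peak between its starts, and from germ line members. They come from the RefSeq promoter table of GRCm38.p6, which held 62 start windows for 61 of the 66 genes. H3c7, H2bc4, H3c1, H2bc21 and H4c14 are named only. Capitals mark 4 short elements searched on both strands. They are the TATA box with the letters TATAAA, the CCAAT box named by its own letters, the octamer with the letters ATTTGCAT and the H1 box with the letters AAACACA. The first 2 sequences are the DNA between the starts of a head-to-head pair, chr13:21753913-21754075 and chr13:21787249-21787487, both given on the plus strand. H2ac15/H2bc15 had the highest fold of such pairs, and H2ac22/H2bc22 had no peak between its starts.
H2ac15/H2bc15: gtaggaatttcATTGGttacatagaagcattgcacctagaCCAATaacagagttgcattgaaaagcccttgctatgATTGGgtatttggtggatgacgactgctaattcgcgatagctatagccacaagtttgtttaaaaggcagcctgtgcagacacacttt
H2ac22/H2bc22: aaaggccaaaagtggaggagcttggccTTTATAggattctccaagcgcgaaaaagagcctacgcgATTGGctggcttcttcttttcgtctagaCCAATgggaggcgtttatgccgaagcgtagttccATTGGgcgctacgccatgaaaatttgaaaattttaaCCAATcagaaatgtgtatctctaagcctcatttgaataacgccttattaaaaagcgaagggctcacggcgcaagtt

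The other sequences are the 150 bases before a start, on the strand of the gene. H1f2 (chr13:23738657-23738806, plus strand) had the highest fold of the H1 genes. H1f6 (chr13:23695661-23695810, plus) and H2ac1 (chr13:23934287-23934436, plus) are germ line members. H3c6 (chr13:23562386-23562535, minus) and H3c11 (chr13:21783398-21783547, minus) had the highest and lowest fold of the H3 genes. H4c11 (chr13:21734884-21735033, plus) and H4c1 (chr13:23761250-23761399, minus) were the same for H4.
H1f2: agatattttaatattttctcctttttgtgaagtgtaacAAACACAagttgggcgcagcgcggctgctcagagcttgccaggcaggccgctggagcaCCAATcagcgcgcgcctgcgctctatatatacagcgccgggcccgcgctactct
H1f6: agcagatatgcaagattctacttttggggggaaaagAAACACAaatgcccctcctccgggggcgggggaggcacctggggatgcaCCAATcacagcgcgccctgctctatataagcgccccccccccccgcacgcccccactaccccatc
H2ac1: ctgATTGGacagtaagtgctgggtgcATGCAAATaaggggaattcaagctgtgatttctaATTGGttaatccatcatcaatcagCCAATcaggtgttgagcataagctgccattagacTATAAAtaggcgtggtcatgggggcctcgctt
H3c6: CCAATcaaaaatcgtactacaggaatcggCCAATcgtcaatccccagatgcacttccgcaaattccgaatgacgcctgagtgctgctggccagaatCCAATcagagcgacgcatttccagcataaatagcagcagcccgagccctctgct
H3c11: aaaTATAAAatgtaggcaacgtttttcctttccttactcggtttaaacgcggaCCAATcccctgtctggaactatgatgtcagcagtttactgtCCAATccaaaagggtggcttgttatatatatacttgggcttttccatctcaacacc
H4c11: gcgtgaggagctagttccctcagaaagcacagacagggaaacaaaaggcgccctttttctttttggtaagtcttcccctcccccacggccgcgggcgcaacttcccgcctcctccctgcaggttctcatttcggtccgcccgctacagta
H4c1: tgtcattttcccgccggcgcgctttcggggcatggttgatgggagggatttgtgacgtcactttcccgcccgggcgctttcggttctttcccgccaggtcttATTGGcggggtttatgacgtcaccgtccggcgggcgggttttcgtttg

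All 66 clustered histone genes had an H3K4me3 peak within 1 kb of the annotated gene (100%, Wilson interval 94.5 to 100). The same rule called 83.4% of all protein-coding genes. Most histone genes are short, and of the 2523 other protein-coding genes of at most 2 kb, 38.4% (36.5 to 40.3) had a peak. These are nearer in length but not in CpG. The median observed-to-expected CpG ratio was 0.149 at their listed starts and 0.748 at histone starts. Among starts with a ratio of at least 0.6, a peak lay within 1 kb of 97.7% of histone starts and 99.0% of others. Among peaks with a −log10 q of at least 10 the order against all protein-coding genes turned. Then 47 of 66 histone genes (71.2%) were marked against 78.4% of all protein-coding genes. The marked genes were served by 87 distinct peaks. Of these, 47 lay within 1 kb of more than 1 histone gene, and 49 of the 66 genes shared at least 1 peak with another member, so the genes are not independent observations. A single peak lay near 20 genes, 2 peaks near 27 and 3 near 15, and 4 genes had more.

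A peak overlapped the annotated gene itself in 61 cases. The other 5 genes, H2ac22, H2ac24, H4c8, H2ac10 and H3c1, had peaks only beside them. H2ac10 had only the near edge of the peak that covers its neighbour H3c8, and that peak has its summit 1392 bp from H2ac10. H2ac10 was also the only one of the 61 genes with a listed start that had no peak within 1 kb of that start.

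Fold enrichment at the histone genes was low, and their summit pileup was not. The fold is the caller's ratio of fragments at the peak summit, plus 1, to the local background, plus 1. The level of a gene is the highest fold among its peaks. In 33 of the 66 genes the summit of that peak lay outside the annotated gene, in some cases inside a neighbouring histone gene. The median level of the 66 genes was 3.82, against 6.93 for marked protein-coding genes outside the clusters and 6.28 for such genes of at most 2 kb. Levels ran from 2.48 at H3c11 to 6.35 at H3c6. A fold of at least 5 was reached by 7 of 66 genes (10.6%, Wilson interval 5.23 to 20.3), against 71.2% of all protein-coding genes.

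**Figure D1:**
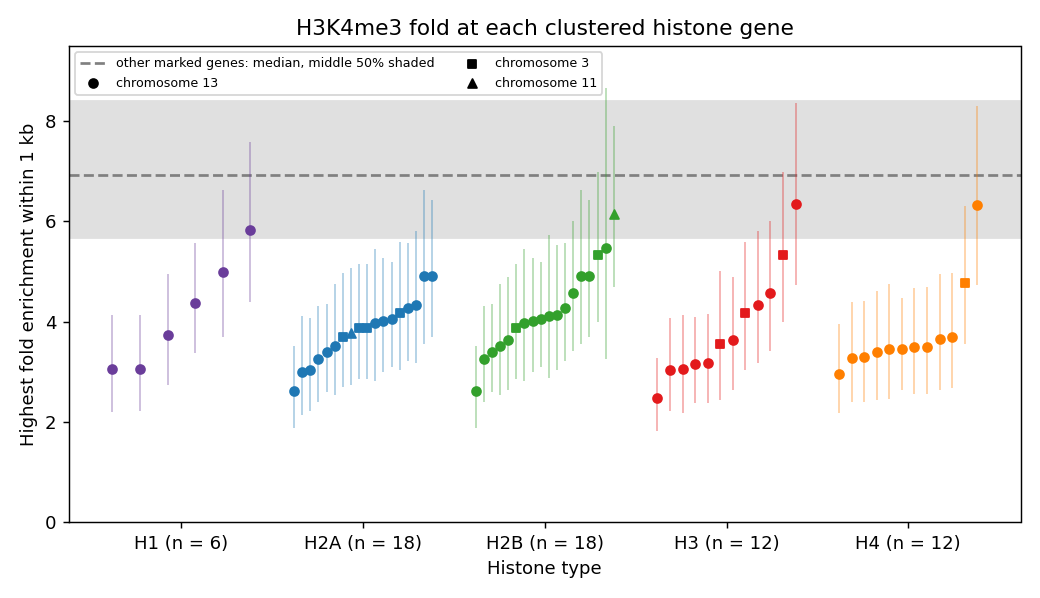
Highest fold enrichment of a peak within 1 kb of each clustered histone gene (y axis, no unit), by histone type, with the marker shape giving the chromosome and lines giving 95% exact Poisson intervals of the summit pileup. The dashed line is the median of other marked protein-coding genes, 6.93, with their middle 50% shaded, and every histone gene lies below that line.

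The low fold went with a high background. The 87 histone peaks had a median summit pileup of 40 fragments (quartiles 35 and 45), against 34 (23 and 42) in 51739 peaks within 1 kb of other protein-coding genes. Their median local background was 10.4 fragments (8.62 to 12.0), against 4.71 (2.51 to 6.999). The ratio of medians was therefore 1.18 for pileup, 2.21 for background and 0.618 for fold. Peaks over a listed start numbered 36 at histone genes and 10258 at other protein-coding genes. Among them the sets lay closer in pileup and background, but not in fold. Their median pileup was 43 against 41, background 10.5 against 5.88 and fold 3.66 against 6.18. Above the lowest value in the list, the background of all 84 histone peaks concerned was a whole number of fragments per 10000 bp, within 0.05, in steps of 0.0158. On that reading the 10000 bp around a histone peak held a median of 658 fragments, against 298 around peaks of other protein-coding genes. The part of neighbouring histone peaks in that background was not tested.

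**Figure D2:**
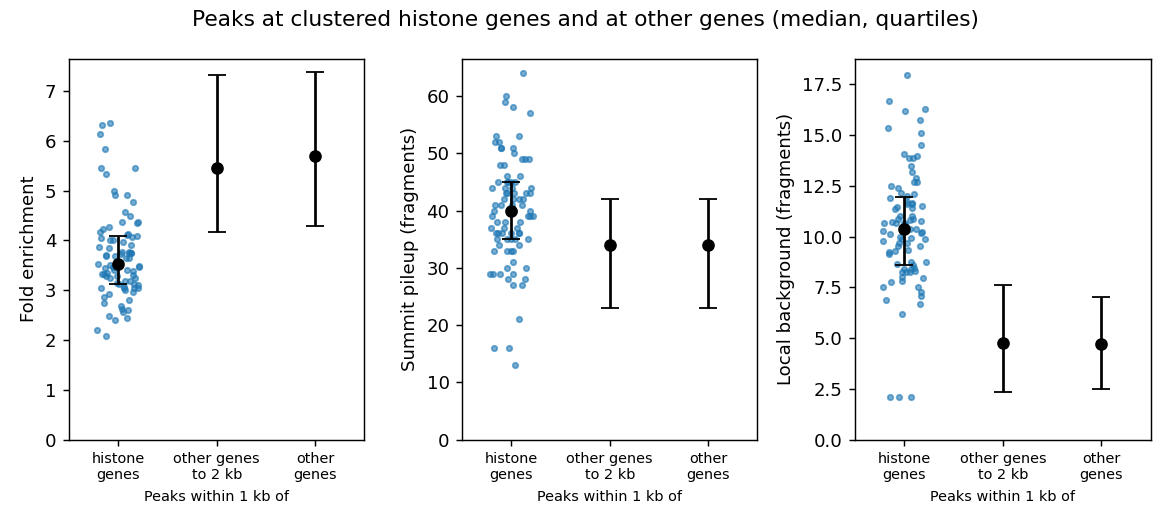
Fold enrichment, summit pileup and local background (fragments) of peaks within 1 kb of clustered histone genes, of other protein-coding genes of at most 2 kb and of all other protein-coding genes. Black marks are medians with quartiles and blue points are the 87 histone peaks, whose median background of 10.4 lies above the upper quartile of both other sets.

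Peaks followed the genes along each cluster. With a new block begun after a gap of over 100 kb, chromosome 13 split into 4 blocks of 18, 5, 29 and 2 genes. In the block of 18 genes, on 121.8 kb, peaks covered 23.1% of the DNA within 1 kb of a histone gene and 1.73% of the rest. In the block of 29 genes, on 233.4 kb, the shares were 24.6% and 1.96%. In the chromosome 3 block, on 50.3 kb, they were 52.9% and 1.86%. Long annotations lower the shares near genes in the blocks of 18 and 29. The H2bc22 window, 16079 bp, was covered at 3.46%, and that of H2bc6, 39455 bp, at 10.3%. Near genes the share was 42.1% in the block of 5 genes. It was 39.4% in the chromosome 13 block of 2 and 46.6% on chromosome 11. Of 93 peaks in the 6 blocks, 6 were not near a histone gene. The median fold of the peaks in a block ran from 3.21 in the block of 5 genes to 3.90 in the chromosome 13 block of 2. The median gene level ran from 3.28 in the block of 5 genes to 4.96 in the 2 genes of chromosome 11.

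**Figure D3:**
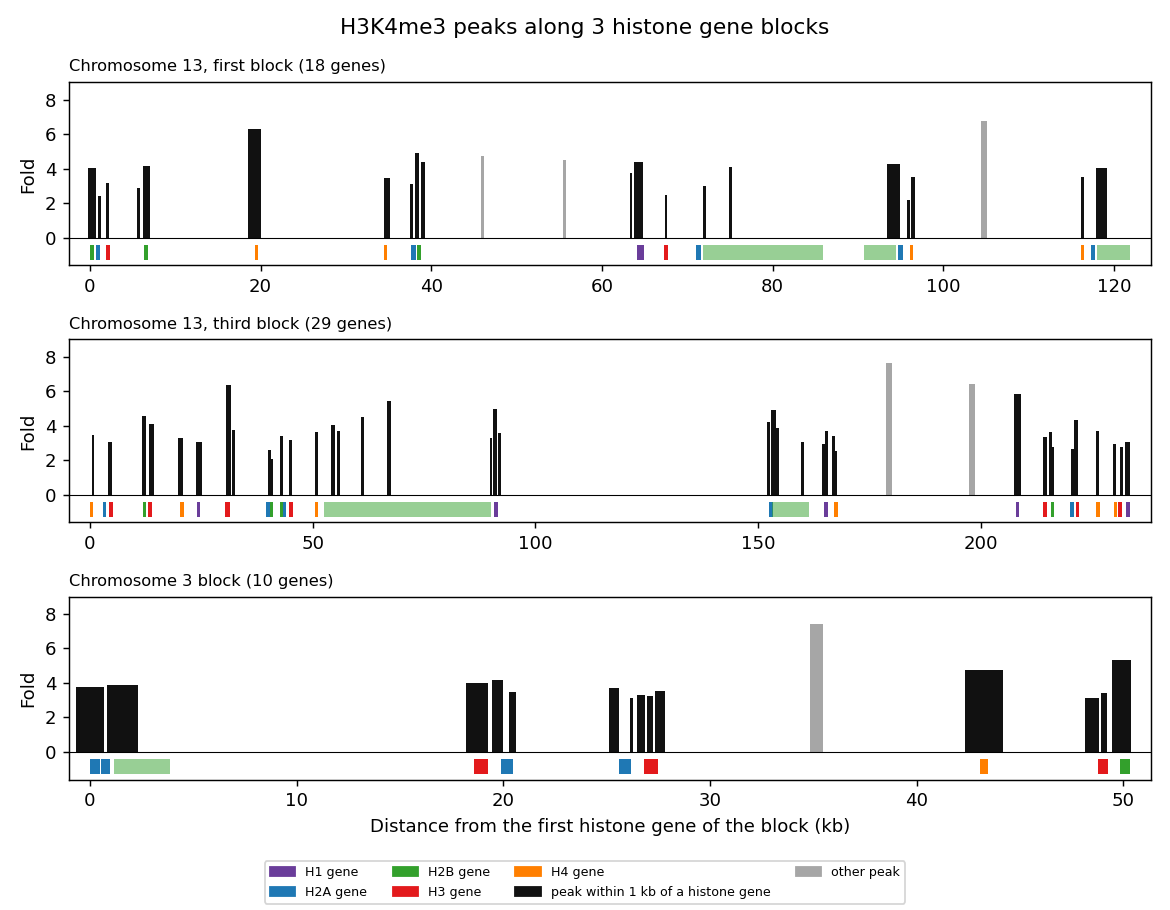
Peaks along the 2 largest blocks of chromosome 13 and the block of chromosome 3, with the distance from the first histone gene in kb (x axis) and the fold of each peak as bar height (y axis). Coloured boxes under the axis are genes by type, pale where the annotated gene is over 2 kb, and grey bars are the peaks that are not within 1 kb of a histone gene.

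Histone starts were covered by peaks more often than starts of genes in general. Of 62 listed starts, 44 lay under a peak (71.0%, Wilson interval 58.7 to 80.8), against 56.8% of all 21263 starts of protein-coding genes and 23.2% of starts of other genes of at most 2 kb. A peak within 1 kb of the start was found for 61 of 62. Among starts rich in CpG, with an observed-to-expected ratio of at least 0.6, the order of coverage was the other way: 65.9% (51.1 to 78.1) of 44 histone starts against 80.2% of 10093 others. Peaks lay within 1 kb of 97.7% and 99.0% of these starts. The Wilson intervals of the CpG-rich groups did not overlap, and starts that share a peak are not independent.

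The nearest summit lay downstream of most H3 and H4 starts and on both sides of H2A and H2B starts. Its median position was 182 bp downstream for 11 H4 starts, 172 bp for 10 H3 starts, 112 bp for 17 H2B starts and 54 bp before the start for 17 H2A starts. The summit lay downstream of 9 of 11 H4 starts and 7 of 17 H2A starts, in some cases past the end of the short gene, as at H4c8. Over all protein-coding genes the median was 46 bp downstream, and 53.3% of nearest summits lay downstream of the start. Coverage of histone starts was 74.2% at 100 bp on either side. It was 33.9% at 500 bp before the start and 43.5% at 600 bp before it, where a neighbouring histone gene can lie.

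**Figure D4:**
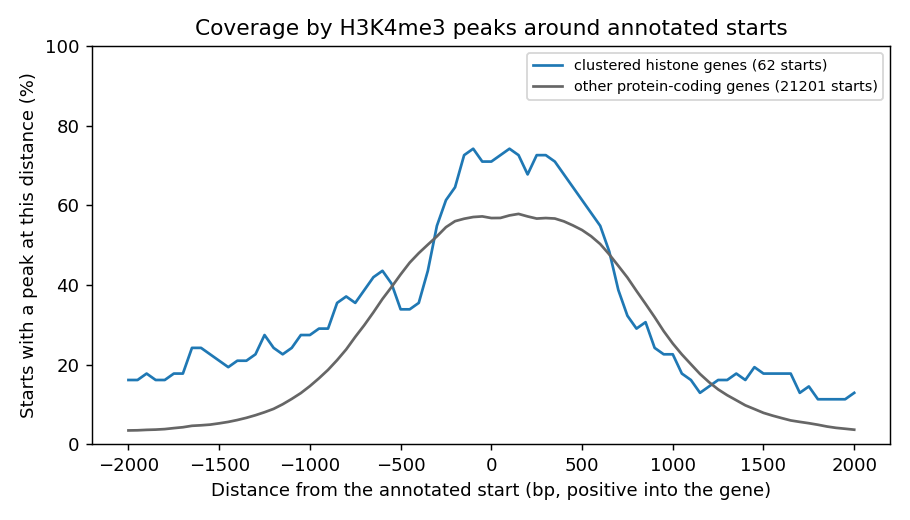
Share of annotated starts that have a peak at each distance (x axis, bp, positive downstream of the start; y axis, %), for 62 histone starts and 21201 starts of other protein-coding genes. Histone starts reach 74.2% at 100 bp either side and stay at 16.1% at 2000 bp before the start, where other starts are at 3.5%.

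H1 genes, which encode the linker histones that bind DNA between nucleosomes, had levels from 3.05 to 5.83. H1f2 was highest at 5.83 (exact Poisson interval 4.39 to 7.59), from a peak of 1745 bp with 53 fragments over a background of 8.26. H1f4 followed at 4.997, H1f5 at 4.37 and H1f6 at 3.73. H1f3 and H1f1 were lowest, at 3.06 and 3.05. The fold intervals of H1f2 (4.39 to 7.59) and H1f3 (2.22 to 4.13), which treat the background as known, did not overlap. Their pileup intervals did, with 39.7 to 69.3 fragments at H1f2 and 29.4 to 55.6 at H1f3. These genes were picked by rank, and their difference was not tested. H1f5 had the highest pileup of any histone peak, 64 fragments, over a background of 13.9, which left its fold near that of genes with fewer fragments.

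H2A and H2B form the dimer that completes the nucleosome core, and many of their genes are paired. Median level was 3.88 in H2A and 4.08 in H2B genes. H2ac15 and H2ac6 led the H2A genes at 4.92, followed by H2ac4 at 4.34, and H2ac22 at 3.001 and H2ac8 at 2.61 were lowest. The summit behind the H2ac6 value lay 822 bp away inside H2bc4, and that behind the H2ac4 value 901 bp away inside H3c2. The peak with its summit nearest the H2ac4 start had a fold of 2.68. Among H2B genes H2bu2 of chromosome 11 was highest at 6.14 (4.69 to 7.91), with H2bc6 at 5.46 and H2bc18 at 5.34. H2bc12 at 3.25 and H2bc8 at 2.61 were lowest. The H2bc6 value came from peaks of 16 fragments over the lowest background, 2.11, far inside an annotated extent of 37455 bp. Those peaks also lie inside a long noncoding RNA gene, Gm33387, so they cannot be assigned to H2bc6 alone. The peaks with summits nearest the listed H2bc6 starts had folds of 4.07 and 3.30. The H2bc6 peaks of highest pileup had 48 and 46 fragments, with folds of 4.07 and 4.997. The peak of 46 fragments lies outside the annotated H2bc6 and also gave the H1f4 level. Its summit lies between these genes, 157 bp from H1f4. No H2A gene reached a fold of 5.

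The list holds 10 head-to-head pairs with both starts listed and at most 500 bp apart, and all 10 joined an H2A with an H2B gene. The DNA between their starts ran from 163 to 280 bp, with a median of 203.5. A single peak spanned both starts in 8 pairs, and in 5 of these its summit lay between them. H2ac15/H2bc15 had the highest fold, 4.92, from a peak of 499 bp with 52 fragments and a summit 54 bp from the H2ac15 start. H2bc13/H2ac13 had 60 fragments and H2bc7/H2ac7 had 59, both with the summit inside the H2B gene. In H2ac24/H4bc24 the peak began past the H2ac24 start and covered only that of H4bc24. In H2ac22/H2bc22, whose sequence holds 4 CCAAT matches on the 2 strands together, the nearest peak began 54 bp inside H2bc22, with 37 fragments and a fold of 3.001.

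H3 genes had the widest range, from 2.48 to 6.35. H3c6 was highest of all members at 6.35 (4.73 to 8.36), from a peak of 1210 bp with 49 fragments over a background of 6.87. H3c13 at 5.34 and H3c7 at 4.57 followed, both from summits outside the gene. That of H3c13 lay 421 bp away, before H2bc18, and that of H3c7 lay 624 bp away, inside H2bc9. The other peaks of H3c13 had folds of 3.11 and 3.41, and that of H3c7 had 4.10. H3c8 at 3.04 and H3c11 at 2.48 (1.83 to 3.29) were lowest. H3c11 had 46 fragments, but over a background of 17.98, the highest among histone peaks, and its only peak was 175 bp wide. In pileup H3c11, with 46 fragments, was close to H3c6 with 49, H3c13 with 51 and H3c10 with 53.

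The H3 genes encode the near-identical proteins H3.1 and H3.2, and the RefSeq table marks the copies of each by shared synonyms. This split was looked at after the values were seen, and no test was made of it. The 4 genes grouped with H3c1, known to encode H3.1, had folds from 2.48 to 3.15, and the 8 grouped with H3c2, known to encode H3.2, from 3.18 to 6.35. The highest of the first group and the lowest of the second differ by less than their counting intervals. Some of these folds came from summits inside a neighbouring gene: H1f1 for H3c1, H2bc3 for H3c3 and H2bc9 for H3c7. By the summit nearest the start H3c13 had 3.11, below the 3.15 of H3c10, so on that measure the groups overlapped. Pileups overlapped, with 39 to 53 fragments against 30 to 51. Median background was 14.8 in the first group and 9.23 in the second.

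H4 genes mostly had a single modest peak over the gene. Of 12 genes 10 lay between 2.96 and 3.69. H4c11 stood above them at 6.33 (4.73 to 8.30), from a peak of 1498 bp with 50 fragments over a background of 7.06. H4c14 on chromosome 3 had 4.78, from the widest histone peak, 1881 bp with 48 fragments, and H4c2 followed at 3.69. H4c9 at 3.28 and H4c1 at 2.96 were lowest. H4c8 had the most fragments, 57, in a peak of 271 bp that lay 134 bp beyond the gene, over a background of 15.8.

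The 10 genes of chromosome 3 had a median level of 4.02 against 3.65 for the 54 of chromosome 13. H2ac21, H2ac20 and H2bc21 shared peaks of 1375 and 1513 bp with folds of 3.75 and 3.88. H3c15 and H2ac19 shared a peak at 4.17, and H2ac18 and H3c14 stood at 3.70 and 3.55. H3c13 and H2bc18 shared a peak of 891 bp at 5.34 with 51 fragments, whose summit lies between them. On chromosome 11, H2bu2 had 58 fragments in a peak of 1165 bp. H2aw, the other member there, had 3 peaks of 38 to 42 fragments and a level of 3.77. The annotated gene Trim17 overlaps H2aw, and a long noncoding RNA, Gm51864, overlaps H2bu2, so these peaks cannot be assigned to the histone gene alone.

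Several members are recent copies of each other, where short reads can be placed on either copy. In 6 pairs of genes the promoter windows shared at least 95% of bases over at least 200 aligned bases. They are H2ac23 with H2ac24, H2bc23 with H4bc24, H4c17 with H4c18, H3c15 with H3c14, H2ac19 with H2ac18 and H4c11 with H4c12. The windows of H2bc23 and H4bc24 were identical over 300 bases, and their peaks had 52 and 49 fragments. H4c17 and H4c18 had 43 fragments each. H3c15 and H3c14 had 42 and 30. H4c11 had 50 over a background of 7.06, in a peak of 1498 bp, and H4c12 had 36 over 9.69 in a peak of 691 bp. The sources used here do not give how reads with several matches were placed, so values of these 12 genes are uncertain. Without them the other 54 genes were all marked, with a median level of 3.75.

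Members known for expression in male germ cells were marked too. H1f6 encodes the testis linker histone H1t, and H2bc1 and H2ac1 encode the testis variants TH2B and TH2A, all known from spermatocytes. H1f6 had 1 peak of 207 bp before its start with 37 fragments and 1 of 656 bp inside the gene with 45, and a level of 3.73. H2bc1 and H2ac1, a head-to-head pair, shared 3 peaks with 36, 31 and 35 fragments and folds of 3.97, 3.46 and 3.90. The 407 bp peak of this pair covered both starts. A long noncoding RNA gene, Gm33516, overlaps the pair and also has these 3 peaks within 1 kb, so they cannot be assigned to the histone genes alone. The levels of H1f6, H2bc1 and H2ac1 lay within the range of the other members, and the difference from them was not tested.

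Joined over gaps of up to 1000 bp, the histone peaks formed 46 domains, of which 12 were among the widest 5% of joined domains in the library, at least 2001 bp. Such a wide domain lay within 1 kb of 26 of 66 histone genes (39.4%), against 21.3% of all protein-coding genes. The widest, 3289 bp, joined 3 peaks at H2bc23, H2ac23 and H4c17. One at H2ac21, H2ac20 and H2bc21 measured 3005 bp. Of the 12, 11 held more than 1 histone gene.

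Histone promoters differed from other promoters in base composition and in short elements. The median GC content of the 62 windows, each 250 bases before and 50 after a start, was 45.3%, against 56.3% over all windows of protein-coding genes, and their median CpG ratio was 0.748 against 0.567. CCAAT was found on either strand in 54 of 62 windows (87.1%), against 38.2% of all windows. It was present in all 51 windows of H1, H2A, H2B and H3 genes and in 3 of 11 H4 windows. TATAAA was found in 35 windows (56.5%), against 12.6% of all. In 16 windows it began 45 to 15 bases before the start on the strand of the gene.

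The octamer, a site of POU-domain factors and known from H2B promoters, was found in 7 of 18 H2A and 7 of 17 H2B windows and in no H1, H3 or H4 window, against 1.66% of all windows. The H1 box was found in 5 of 6 H1 windows, against 6.15% of all. No element contains another, though matches side by side can share end letters. Windows of a head-to-head pair overlap, so a match can be counted for both genes. A match describes the letters only, and these elements were not set against the fold.

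**Figure D5:**
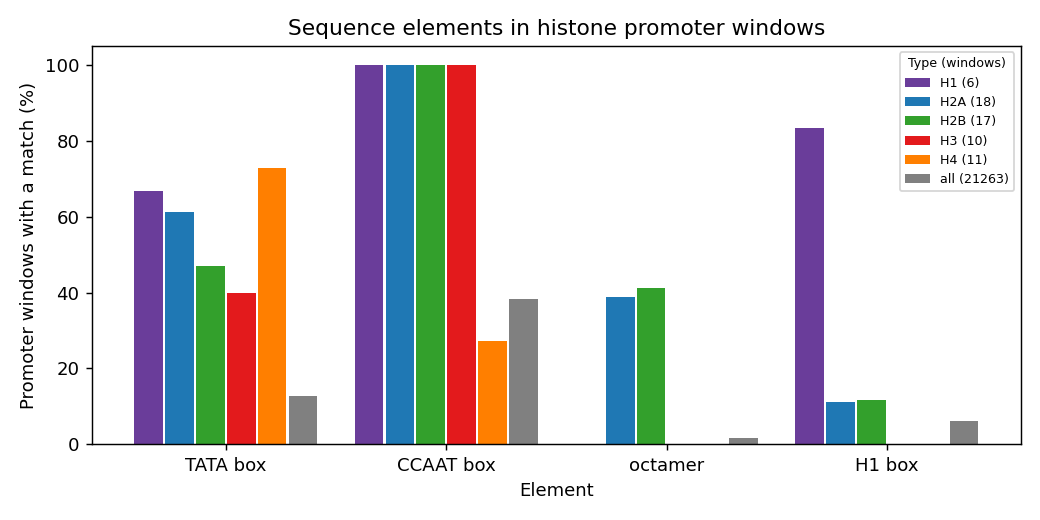
Share of promoter windows (y axis, %) with at least 1 match to each element on either strand, by histone type and over all 21263 windows of protein-coding genes. CCAAT fills the bars of H1, H2A, H2B and H3, at 100%, but reaches 27.3% in H4, below the 38.2% of all windows.

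Genes that make histone messenger RNA were all marked. Of 18 genes for histone transcription and 3′ processing, 18 had a peak within 1 kb, against 83.4% of all protein-coding genes, and 13 reached a fold of 5, against 71.2%. Lsm10, a subunit of the U7 particle that cuts histone transcripts, was highest at 9.46, with Cpsf3, the nuclease of 3′ processing, at 8.40. Slbp stood at 6.50 with 44 fragments, Casp8ap2 at 7.39 and Npat at 4.98 with 40. Median background in this list was 5.98, below the 10.4 of the histone peaks.

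Histone genes outside the clusters were marked in 13 of 15 cases, close to the 83.4% of all protein-coding genes, and 7 of 15 reached a fold of 5, fewer than the 71.2% of all. Macroh2a2, a macroH2A variant, was highest at 10.2, followed by Cenpa, the centromere H3 variant, at 7.64. H3f3a and H3f3b, which encode the replacement histone H3.3, had 7.07 and 6.69. The H3f3a value came from 1 of its 5 peaks, 279 bp wide with 21 fragments over the lowest background, 2.11. H4f16, an H4 gene on chromosome 6, had 3.51 with 55 fragments over a background of 14.9, and H2az1 had 3.31. Hils1, a spermatid linker histone, and H1f8, the oocyte linker histone, had no peak. The other linker histone genes of this list, H1f7, H1f10 and H1f0, were marked, with folds of 7.01, 4.56 and 3.64. All 8 histone chaperone genes were marked, led by Chaf1a at 8.75 and Chaf1b at 6.18, subunits of the assembly factor CAF-1, and 5 of 8 reached a fold of 5, beside the same shares of 83.4% and 71.2%.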

How the data were processed

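H3K4me3 was profiled by CUT&RUN in 1 library. The submitters' processing notes name the peak caller MACS2 2.1.0, the aligner Bowtie2 2.5.0, the trimmer Trim Galore, deepTools 3.5.1, bedtools 2.27.1 and SAMtools 1.16.1, and the builds mm10 and sacCer3, without settings. The authors deposited 135064 peaks with a fold enrichment, a ratio over local background, the −log10 p and −log10 q, and a score that is 10 times the −log10 q, cut to a whole number, in all but 2 peaks. All had a −log10 q of at least 2, and the deposited score was not used further.

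Pileup and background were recovered from fold and −log10 p with a Poisson tail. This solved 135053 peaks within 0.0001, all 87 histone peaks included. Whether IgG entered the background was not tested. The library's total depth is unknown. Intervals are 95% Wilson for shares and exact Poisson for pileups, from fragments without molecular identifiers, and cover counting error only. An interval on a fold treats the background as known.

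Windows were the annotated gene and 1000 bp on each side. Gene positions and starts came from RefSeq tables of GRCm38.p6. Named genes were, by rule, the 3 highest and 2 lowest of each type, all members on chromosomes 3 and 11, germ line members, and the highest 2 and the unmarked genes of each comparison list, and other protein-coding genes inside the clusters. Other named genes were chosen after their values were seen. Members and lists were chosen with earlier results of these data known. On simulated data, all 200 planted genes were called. Tools were scipy 1.17.1, pandas 2.3.3, numpy 2.4.6, biopython 1.88 and matplotlib 3.10.9 under Python 3.11.15.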

Additional observations from a re-analysis of the deposited data

How the results depend on the processing

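All 66 histone genes stayed marked within 2500 bp, and all 54 without near-identical copies. The count was 65 within 500 bp, 65 where the summit had to lie in the window, 64 with 200 bp shared and 61 for the gene itself. With a −log10 q of at least 10 it was 47, and the order of the shares turned: 71.2% of histone genes against 78.4% of all protein-coding genes. Around listed starts it was 60 of 61, and without 6 genes annotated over 2 kb 60 of 60; both were chosen after seeing the data. Only a fold of at least 5 moved the count by over 1.5 times, to 7. Of all protein-coding genes 15585 were marked with a fold of at least 5, and 17169 to 18675 under the other windows, overlaps and thresholds. This was not computed around listed starts or without copies or long genes. The median level was 4.11 with a −log10 q of at least 10 and 5.83 with a fold of at least 5, which by construction drop low peaks; elsewhere it ran from 3.69 to 3.99. Distinct peaks numbered 41 and 7 under those 2 thresholds and 46 once joined. Genes sharing a peak numbered 21 for the gene itself, and 32 and 2 under the 2 thresholds. No paired analysis was possible because the labels give 1 library of each kind. Pileups of 13 to 64 fragments limit the precision of single genes.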

Other observations

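Other genes inside the histone blocks were few. Hfe, which encodes a regulator of iron uptake, lies between H4c3 and H1f2 on chromosome 13 and had a peak with a fold of 7.64, 39 fragments and a background of 4.23, in a place away from histone peaks. Trim17 on chromosome 11 had 8 peaks, of which 3 were also within 1 kb of H2aw, and its highest fold, 5.78, came from a peak of 17 fragments over the lowest background.

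The histone pseudogenes inside the blocks, H2bu1-ps, H2ac14 and H2ac5-ps, also had peaks within 1 kb. Every one of these peaks was also within 1 kb of a protein-coding histone gene, so none can be given to the pseudogene alone. Gm11338, another pseudogene there, had a peak of its own with a fold of 6.42 and 34 fragments. Of 5 long noncoding RNA genes inside the blocks all had a peak within 1 kb, against 59.1% of all 12727 such genes, and 3 had a peak that no histone gene shares. One of these, Gm33516, overlaps the H2bc1 and H2ac1 pair and had a fold of 8.03 with 24 fragments.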
